A study of Homo sapiens with 58 samples.

Results

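The expression profiles of 12 cell lines with few published descriptions were set beside those of 18 better known lines. The 12 were OCUBF, OCUBM, EVSAT, VP229, VP267, SW527, COLO824, FR2, SVCT, MT3, CAL51 and DU4475. They are labelled as breast cancer, and their origin was not tested. The 12 lines are 12 of the 58 in the series and were picked by name. The 18 reference lines formed 5 classes. These were luminal ER-positive (T47D, ZR751, KPL1 and CAMA1), HER2 (SKBR3, UACC893 and HCC1954), basal A (HCC70, HCC1143, HCC1937 and MDAMB468), basal B (MDAMB231, BT549, HS578T and MDAMB436) and fibroblast-like (HS362T, HS605T and HS739T). The sample labels give only the name of a line and that it is breast cancer, so the classes follow general knowledge of these lines. All lines were untreated cultures grown as their suppliers recommend, and each gave 1 array. Each of the 12 lines is therefore a single sample with no replicate of its own, and the spread that a difference is set against is the spread between lines of one class.

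Breast cancer lines are commonly sorted by the program they share with the normal gland. Luminal lines carry the estrogen receptor ESR1, the pioneer factor FOXA1 and GATA3, the transcription factor of the milk-duct lineage. HER2 lines carry extra copies of the receptor kinase gene ERBB2 and its neighbours on chromosome 17. Basal A lines make keratins of the outer cell layer of the duct, and basal B lines have lost cell-cell junction genes and make mesenchymal genes such as VIM and ZEB1. The fibroblast-like lines make fibrillar collagens and resemble stroma more than epithelium.

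Expression was measured as RMA log2 intensity on a custom Affymetrix array, on which 1 unit is a 2-fold difference. Array medians ran from 5.37 to 5.58 over the 58 lines, values below that have no clear order, and the values of different genes cannot be compared with each other. The interquartile range of the deviations from each gene's median was 0.477 to 0.619 in the 12 lines, widest in VP229, and 0.452 to 0.639 in the 18 reference lines, widest in HS362T. The markers of the classes separated them to different degrees. ESR1 had 12.24 to 12.73 in the luminal ER-positive lines, ERBB2 had 13.50 to 13.69 in the HER2 lines, KRT5 had 6.04 to 13.38 in the basal A lines, VIM had 13.12 to 13.51 in the basal B lines and COL1A1 had 14.16 to 14.28 in the fibroblast-like lines. KRT5 reached 7.75 in basal B and VIM reached 13.55 in basal A, so these 2 markers overlapped between the basal classes.

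Placement by the whole profile put the lines into 3 kinds. FR2, CAL51, VP267 and DU4475 lay nearest to 1 class by a margin of at least 0.1, OCUBF, OCUBM and EVSAT lay between the luminal ER-positive and HER2 classes with clear correlations to both, and VP229, SW527, COLO824, SVCT and MT3 lay between classes with weak correlations. The measure was the Pearson correlation, over 14162 genes, of a line's departure from the mean of the 5 class means with each class's departure from it. These correlations are over genes, which are not independent, and describe the lines with no test.

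FR2 had an r of 0.436 with basal B and 0.251 with the fibroblast-like class. CAL51 had 0.166 with basal B and 0.009 with the fibroblast-like class, so its margin of 0.157 stood on a low correlation. VP267 had 0.337 with basal A and 0.226 with HER2. DU4475 had 0.212 with the luminal ER-positive class and 0.0968 with HER2, again from a low correlation. Its luminal epithelium genes did not follow this placement. The mean log2 distance of that list from the mean of the class means was -1.99 in DU4475, against 2.40 to 3.93 in the luminal ER-positive lines, and 6 of its 12 tested members were lower than in that class (limma), beside 3.26% of all genes. The highest correlations with any class belonged to EVSAT, OCUBM and OCUBF. EVSAT had 0.506 with the luminal ER-positive class and 0.468 with HER2. OCUBM had 0.487 and 0.42 with these 2 classes, and OCUBF had 0.484 and 0.388. All 3 had negative correlations with basal B and the fibroblast-like class.

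VP229 had an r of 0.27 with HER2 and 0.255 with basal A. MT3 had 0.24 with HER2 and 0.223 with the luminal ER-positive class. COLO824 had 0.214 with the luminal ER-positive class and 0.135 with basal A. All 3 had negative correlations with basal B and the fibroblast-like class. SVCT had 0.17 with basal A and 0.151 with basal B. SW527 had 0.0566 with the luminal ER-positive class and 0.0559 with basal B, the lowest nearest-class correlation of the 12 lines.

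**Figure D1:**
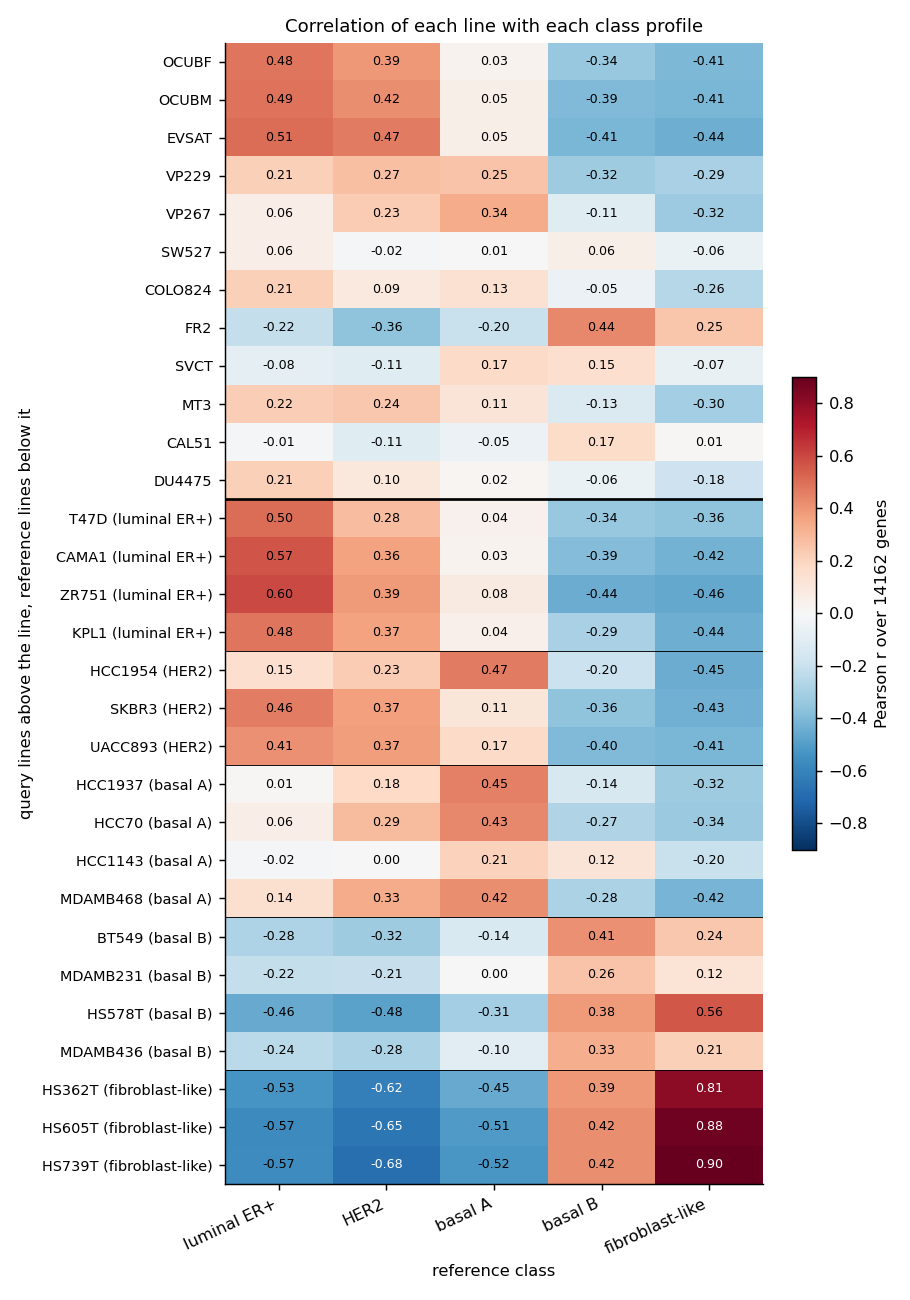
Heat map of Pearson r between each line's centred profile (rows) and each class mean (columns) over 14162 genes, for the 12 query lines and for the 18 reference lines, each reference line left out of its own class mean. FR2 has 0.436 with basal B and EVSAT 0.506 with the luminal ER-positive class, while SW527 has no r above 0.0566.

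The reference lines show how far such a placement can be read. Placed in the same way with itself left out of its class mean, 14 of the 18 reference lines came nearest to their own class. HCC1954 came nearest to basal A, SKBR3 and UACC893 to the luminal ER-positive class, and HS578T to the fibroblast-like class. The margins of these placements over the own class were 0.237, 0.093, 0.036 and 0.177 in the same order. FR2, CAL51, VP267 and DU4475 had margins of 0.112 to 0.185, below that of HCC1954. The SD of the own-class margin over the 18 lines was 0.198, so a margin of 0.1 does not secure a placement. No line of the HER2 class was thus nearest to it, and the correlation with the own class ran from 0.207 in HCC1143 to 0.896 in HS739T. With the HER2 class left out, an alternative chosen after seeing the data, VP229 came nearest to basal A and MT3 to the luminal ER-positive class, and the other 10 lines kept their nearest class.

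The single lines most like each of the 12, over all 58 lines with each gene centred on its mean, cut across the classes. OCUBF and OCUBM were nearest to each other with an r of 0.74, followed by CAMA1 for OCUBF (0.384) and EVSAT for OCUBM (0.419). VP229 and VP267 were also nearest to each other, with 0.44. SW527 and DU4475 were nearest to each other with 0.36, and MT3 was nearest to DU4475 with 0.201. EVSAT was nearest to CAMA1 (0.436), FR2 to HS578T (0.417), SVCT to CAL120 (0.332), COLO824 to HCC1569 (0.232) and CAL51 to SW527 (0.165). With the 1000 most variable genes the nearest line changed for 4 of the 12, to OCUBM for EVSAT (0.557), HS579MG for FR2 (0.587), MB157 for COLO824 (0.342) and SW527 for MT3 (0.208).

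Genes that set a line apart were those that differed from all 5 class means in the same direction, with the largest of the 5 p-values, adjusted by Benjamini-Hochberg over the 14162 genes, under 0.05 (limma). DU4475 had 462 such genes, MT3 had 197 and SW527 had 158, against 6 in SVCT and 14 each in FR2 and VP267. CAL51 and COLO824 had 81 each, EVSAT 42, OCUBM 31, VP229 31 and OCUBF 23. As shares of all genes tested these were 3.26% in DU4475, 1.39% in MT3, 1.12% in SW527, 0.572% in CAL51, 0.572% in COLO824, 0.297% in EVSAT, 0.219% in OCUBM, 0.219% in VP229, 0.162% in OCUBF, 0.0989% in FR2, 0.0989% in VP267 and 0.0424% in SVCT. The 12 lines are each compared with the same 18 reference lines, so their counts are not independent. The test takes each lone line to vary as lines within a class do, with 13 residual degrees of freedom. In simulated data 26.3% of planted changes of 2 log2 units were recovered, against 76.2% of those of 5 units, so that a line with few genes apart may hold more that were not detectable.

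**Figure D2:**
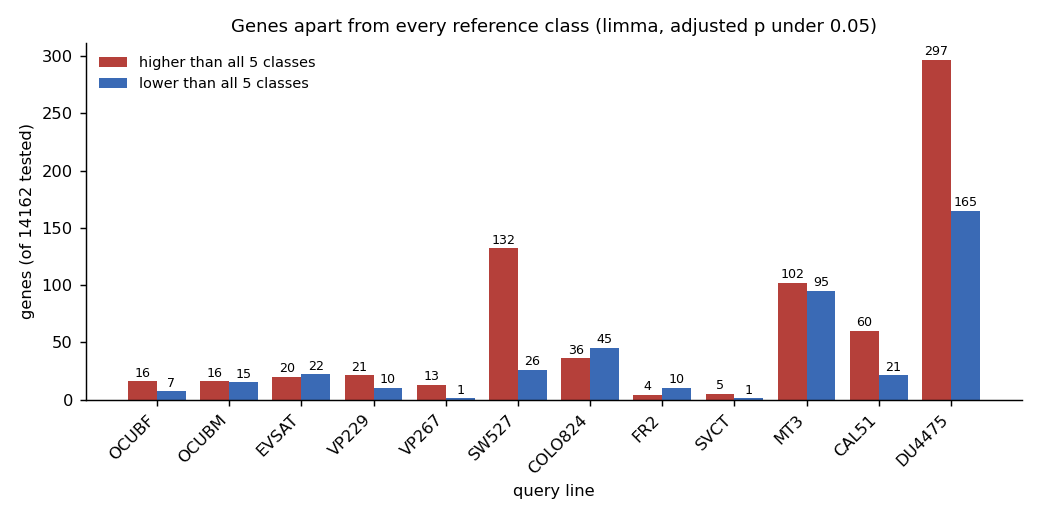
Number of genes apart from all 5 classes (limma, adjusted p under 0.05 over 14162 genes) in each of the 12 lines, as bars of genes higher and genes lower. DU4475 has 297 higher and 165 lower, and SVCT has 5 higher and 1 lower.

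**Figure D3:**
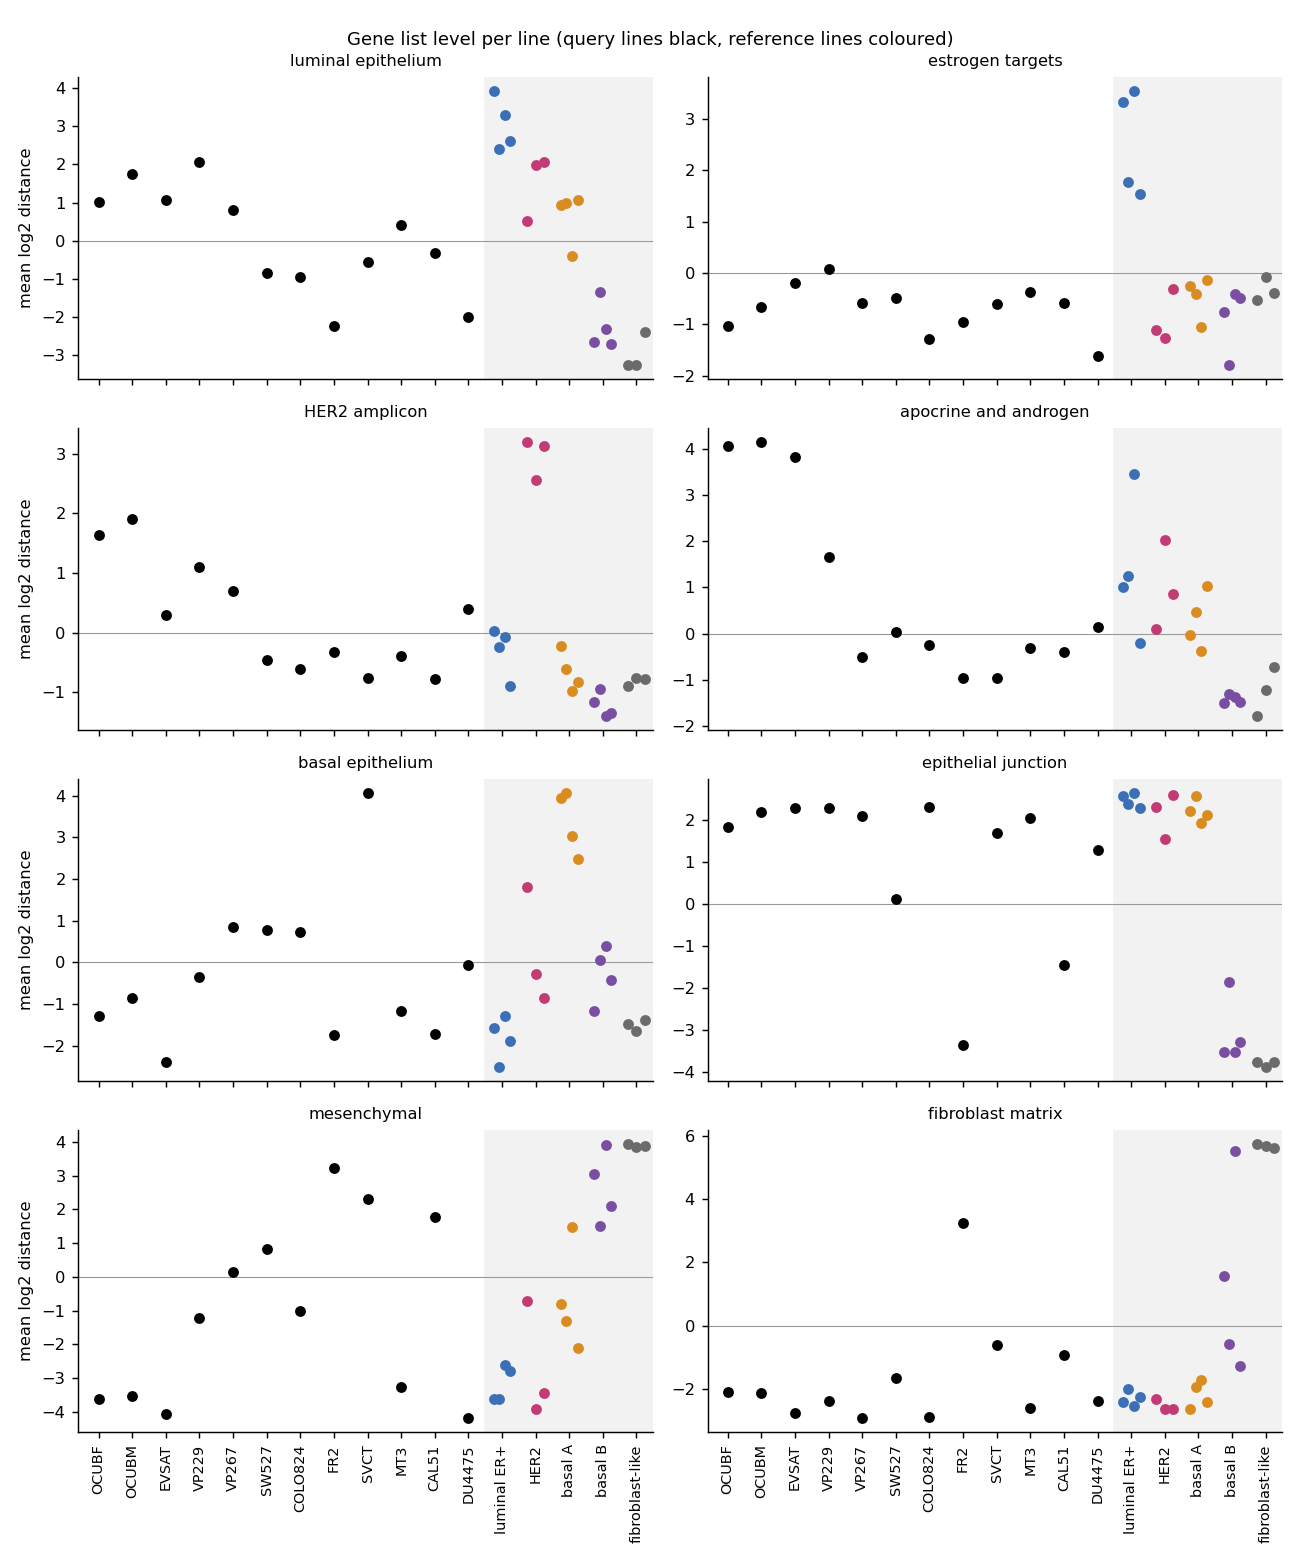
List level, the mean log2 distance of a list's tested members from the mean of the 5 class means, for 8 gene lists; each point is 1 line, with the 12 query lines beside the reference lines of the 5 classes. The apocrine list stands at 4.06, 4.16 and 3.84 in OCUBF, OCUBM and EVSAT, and the epithelial junction list at -3.35 in FR2.

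OCUBF, OCUBM and EVSAT had the highest levels of the apocrine and androgen list among the 30 lines, with few members past the test. The list level, which is the mean log2 distance of a list's tested members from the mean of the 5 class means, was 4.06 in OCUBF, 4.16 in OCUBM and 3.84 in EVSAT for the apocrine and androgen list, against -1.79 (HS362T) to 3.46 (ZR751) in the reference lines. SCGB2A2, mammaglobin, had 13.51 in OCUBF, 13.60 in OCUBM and 13.50 in EVSAT, against a lowest of 3.49, a median of 4.09 and a highest of 13.64 in the 18 reference lines. SCGB1D2, the lipophilin that pairs with mammaglobin, had 11.77 in OCUBF, 13.13 in OCUBM and 13.02 in EVSAT, against a lowest of 2.81, a median of 3.83 and a highest of 13.10 in the 18 reference lines. The highest reference line for both was ZR751, and OCUBM and EVSAT lay close to it in both genes while OCUBF lay below it in SCGB1D2. SCGB2A1, a close relative, had 9.48 in OCUBF, 12.84 in OCUBM and 11.16 in EVSAT, against 3.03 to 10.75 in the 18 reference lines. PIP, the prolactin-induced protein of apocrine secretions, had 11.61 in OCUBF, 10.39 in OCUBM and 4.46 in EVSAT, against 2.75 to 13.45 in the 18 reference lines.

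Of the 9 tested members of the apocrine list 1 was apart upward from all 5 classes in OCUBF, beside 0.113% of all genes, none in OCUBM and 1 in EVSAT, beside 0.141%, with ZR751 also high for the secretoglobins. UGT2B28, a glucuronosyltransferase that clears androgens, had 6.78 in OCUBF, against a lowest of 2.14, a median of 2.45 and a highest of 4.18 in the 18 reference lines, and differed by 3.78 ± 0.60 (SE) from the HER2 class, the nearest (adjusted p = 0.00914). UGT2B11 of the same family had 8.01 in OCUBF, against a lowest of 1.86, a median of 2.42 and a highest of 4.22 in the 18 reference lines, and differed by 5.09 ± 0.67 (SE) from the HER2 class, the nearest (adjusted p = 0.00183). The genes of this family are near-identical, so the probe sets may not separate them. ALOX15B, an arachidonate lipoxygenase of apocrine and prostate epithelium, was the gene that set EVSAT apart most. It had 13.47 in EVSAT, against a lowest of 3.54, a median of 4.15 and a highest of 8.24 in the 18 reference lines, and differed by 8.37 ± 1.12 (SE) from the basal A class, the nearest (adjusted p = 0.00229).

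The estrogen receptor was low in all 3 lines beside the luminal ER-positive class. ESR1 had 4.53 in OCUBF, 5.62 in OCUBM and 4.58 in EVSAT, against 12.24 to 12.73 in the luminal ER-positive lines. EVSAT lay -7.94 from that class mean (adjusted p = 0.00485). The estrogen target list had levels of -1.03, -0.66 and -0.19 in OCUBF, OCUBM and EVSAT, against 1.54 to 3.54 in the luminal ER-positive lines. GATA3 had 9.52 in OCUBF, 10.64 in OCUBM and 3.60 in EVSAT, against 11.89 to 12.77 in the luminal ER-positive lines. In EVSAT it fell by 8.80 against the luminal ER-positive mean (adjusted p = 0.00426) and by 5.70 against the basal A mean (adjusted p = 0.0379). The pioneer factor FOXA1 had 13.08 in OCUBF, 13.14 in OCUBM and 13.40 in EVSAT, against 12.96 to 13.46 in the luminal ER-positive lines.

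OCUBF and OCUBM carried raised genes of the HER2 amplicon, the stretch of chromosome 17 that is copied with ERBB2. ERBB2 had 13.41 in OCUBF and 13.53 in OCUBM, against 13.50 to 13.69 in the HER2 lines and 10.77 to 11.98 in the luminal ER-positive lines. Against the basal A mean it rose by 3.01 in OCUBF (adjusted p = 0.00282) and 3.13 in OCUBM (adjusted p = 0.00211). Against the luminal ER-positive mean the differences were 1.91 (adjusted p = 0.0935) and 2.03 (adjusted p = 0.0722), which did not pass. Its neighbours did pass there. MIEN1, a small membrane protein gene beside ERBB2, rose by 3.07 in OCUBF (adjusted p = 0.00815) and 3.01 in OCUBM (adjusted p = 0.00883). STARD3, a cholesterol transfer protein gene, rose by 2.55 in OCUBF (adjusted p = 0.0273) and 2.80 in OCUBM (adjusted p = 0.0125).

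Of the 8 amplicon genes, 3 were higher in OCUBM than in the luminal ER-positive class, beside 0.275% of all genes, and 2 were higher in OCUBF, beside 0.297%. The median difference of the list was 2.29, against -0.0034 over all genes tested in OCUBM, and 1.89, against -0.01 over all genes tested in OCUBF. Neither line had an amplicon gene that passed against the HER2 class, where 0.36% of all genes were called in OCUBM and 0.395% in OCUBF. EVSAT did not reach the HER2 lines. Its list level was 0.29, against 2.57 to 3.20 in the HER2 lines and -0.90 to 0.02 in the luminal ER-positive lines. ERBB2 had 12.18 in EVSAT, above the luminal ER-positive range given above. The median difference of the list from the HER2 class was -2.57.

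Genes outside the breast lists set OCUBF and OCUBM apart together. LMO3, a LIM-domain transcription cofactor, had 11.01 in OCUBF and 10.80 in OCUBM, against a lowest of 2.59, a median of 3.20 and a highest of 5.88 in the 18 reference lines. The difference from the luminal ER-positive class, the nearest, was 6.72 ± 0.95 (SE, adjusted p = 0.00386) in OCUBF and 6.51 ± 0.95 (SE, adjusted p = 0.00327) in OCUBM. LCT, lactase, the milk-sugar enzyme of the gut lining, had 9.93 in OCUBF, 9.18 in OCUBM and 9.05 in EVSAT, against a lowest of 2.91, a median of 3.26 and a highest of 5.13 in the 18 reference lines, and was apart in all 3 lines with adjusted p of 0.000136, 0.000497 and 0.00115. In the other 9 query lines it stood at 2.80 to 3.43. GABRG3, a GABA receptor subunit, had 8.27 in OCUBF and 7.72 in OCUBM, against 2.57 to 3.31 in the 18 reference lines. CNTNAP4 and KCNV1 were named for OCUBF and not for OCUBM. CNTNAP4, a neuronal adhesion protein gene, had 8.11 in OCUBF and 4.65 in OCUBM, against 2.59 to 3.08 in the 18 reference lines. It was also apart in DU4475 at 9.93 and MT3 at 5.41. KCNV1, a potassium channel subunit gene, had 7.94 in OCUBF, against 2.02 to 4.06 in the 18 reference lines. S100A6, a calcium-binding protein gene, was low in both lines, with 5.25 in OCUBF and 3.92 in OCUBM, against a lowest of 8.43, a median of 11.39 and a highest of 12.05 in the 18 reference lines, and C2CD2 likewise with 3.89 in OCUBF and 3.16 in OCUBM, against 7.73 to 11.59 in the 18 reference lines. These 2 genes were not limited to the pair, since C2CD2 was also apart in EVSAT at 4.21 and S100A6 in COLO824 at 4.68.

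Between themselves OCUBM and OCUBF differed little, with an SD of the difference over genes of 0.82 and 95 genes higher and 68 lower in OCUBM by more than 3 log2 units. The 24 pairs of lines within the reference classes had SDs of 0.596 to 1.51, with a median of 1.37, and 97 to 896 genes past 3 units in either direction. Some genes were nonetheless at the bottom of the scale in 1 line and high in the other, and STAG2 was low in both. CAPZA1, the actin-capping subunit gene, had 3.02 in OCUBM and 12.07 in OCUBF, and OCUBM differed from the HER2 class, the nearest for this gene, by -8.77 ± 0.35 (SE, adjusted p = 7.63e-10). STAG2, a cohesin subunit gene on chromosome X, had 4.82 in OCUBM and 2.51 in OCUBF, against a lowest of 10.36, a median of 11.17 and a highest of 11.85 in the 18 reference lines, and OCUBF differed by -8.36 ± 0.38 (SE) from the fibroblast-like class, the nearest (adjusted p = 6.81e-09). DUSP3, a phosphatase gene, had 10.92 in OCUBM and 3.60 in OCUBF, against 9.75 to 11.79 in the 18 reference lines. KRT20, a keratin of gut and bladder lining, had 11.29 in OCUBM and 3.67 in OCUBF, against 2.53 to 3.87 in the 18 reference lines, and OCUBM differed by 8.0 ± 0.53 (SE) from the HER2 class, the nearest (adjusted p = 4.48e-07). EPHA3, an ephrin receptor gene, had 3.06 in OCUBM and 9.96 in OCUBF. GPX1, a glutathione peroxidase gene, had 10.49 in OCUBM and 4.43 in OCUBF. With 1 array a line, these pairwise values have no replicate check.

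NIBAN1 had 11.70 in OCUBM and 4.90 in OCUBF, and ZDBF2 had 8.61 in OCUBM and 2.60 in OCUBF. TCEAL9 had 3.46 in OCUBM and 11.01 in OCUBF, SAT2 had 3.39 and 9.79, and SYT5, a synaptotagmin gene, had 4.42 and 10.48 in the same order. The remaining genes named for OCUBM were MUC19, SYCE1 and ITPRIPL2. MUC19, a gel-forming mucin gene, had 11.23 in OCUBM, against a lowest of 2.50, a median of 3.16 and a highest of 6.79 in the 18 reference lines, and differed by 6.56 ± 1.24 (SE) from the HER2 class, the nearest (adjusted p = 0.0384). That call was lost without any 1 of 14 of the 18 reference lines (adjusted p up to 0.116) and under the stricter filter, which requires 3 lines above the array median (0.0557). SYCE1, a gene of the meiotic synaptonemal complex, had 8.47 in OCUBM and 7.13 in OCUBF, against 2.29 to 2.92 in the 18 reference lines. ITPRIPL2 had 4.69 in OCUBM, against 9.98 to 12.61 in the 18 reference lines.

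EVSAT was low in interferon-induced genes, with a list level of -3.38, against -3.01 (CAMA1) to 3.57 (HCC1937) in the reference lines. IFI6 had 6.26 in EVSAT, against a lowest of 8.45, a median of 11.25 and a highest of 13.36 in the 18 reference lines, and IFI27 had 3.86, against 4.43 to 13.14 in the 18 reference lines. Against the basal B class 5 of 9 members were lower, beside 2.79% of all genes, against basal A 3 of 9, beside 1.17%, and against the fibroblast-like class 3 of 9, beside 7.53%. None passed against the luminal ER-positive and HER2 classes, to which EVSAT lay nearest, with median differences of -0.59 and -2.48. PLSCR1, a phospholipid scramblase induced by interferon, had 3.08 in EVSAT, against a lowest of 7.94, a median of 9.54 and a highest of 12.36 in the 18 reference lines, and differed by -5.53 ± 0.94 (SE) from the fibroblast-like class, the nearest (adjusted p = 0.0141), a call that was lost without HS362T (adjusted p = 0.0508). The MHC class II list stood at -1.84 in EVSAT, against -1.60 (BT549) to 3.85 (MDAMB231) in the reference lines, with HLA-DRA at 2.57, against 2.65 to 10.35 in the 18 reference lines. The ERK output list was -2.87 in EVSAT, within the reference range of -3.07 (CAMA1) to 1.54 (MDAMB231), where PHLDA1 had 4.10, against 5.5 to 13.15 in the 18 reference lines. The basal epithelium list was -2.38, the lowest of the 12 lines, against -2.52 (CAMA1) to 4.07 (HCC70) in the reference lines.

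Other genes apart in EVSAT belonged to no list. SPDYC, a gene of the Speedy activators of cyclin-dependent kinases, had 10.98 in EVSAT, against a lowest of 4.57, a median of 4.97 and a highest of 8.21 in the 18 reference lines, and differed by 5.15 ± 0.93 (SE) from the basal A class, the nearest (adjusted p = 0.0219). FEV, an ETS factor of serotonin neurons, had 6.98, against 2.30 to 2.96 in the 18 reference lines, CABP2, a calcium sensor gene, had 9.26, against 4.45 to 5.57 in the 18 reference lines, and the noncoding LINC01342 had 8.51, against 2.49 to 4.76 in the 18 reference lines. On the low side DYNLT3, a dynein light chain gene on chromosome X, had 3.38 in EVSAT, against a lowest of 9.59, a median of 11.54 and a highest of 12.38 in the 18 reference lines, and differed by -7.82 ± 0.78 (SE) from the HER2 class, the nearest (adjusted p = 0.000177). ATP11A, a phospholipid flippase gene, had 4.14, against 7.89 to 11.92 in the 18 reference lines, a call that ended with the mean of the probe sets (adjusted p = 0.0511).

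VP267 and VP229 have been described as lines from the same patient, and their profiles were each other's closest among the 58 lines. They differed more than OCUBM and OCUBF did, with an SD of the difference over genes of 1.23, and with 198 genes higher and 313 lower in VP267 by more than 3 log2 units. The median of the 24 pairs within the reference classes was 699 such genes. The estrogen receptor gene stood above the array median in both lines. ESR1 had 9.97 in VP267 and 11.33 in VP229, against 12.24 to 12.73 in the luminal ER-positive lines. VP229 rose above the basal B mean by 7.47 (adjusted p = 0.00249), and its difference of -1.20 from the luminal ER-positive mean did not pass (adjusted p = 0.741). PGR, the progesterone receptor and a classic estrogen target, stayed at the bottom of the scale in both lines, with 2.52 in VP267 and 2.02 in VP229, against 2.74 to 11.55 in the luminal ER-positive lines.

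The largest differences between the VP lines lay in other genes. APOD, the secreted lipid carrier apolipoprotein D, had 5.10 in VP267 and 12.80 in VP229. LMO3 had 3.02 in VP267 and 11.13 in VP229, which places VP229 beside OCUBF and OCUBM for this gene. The cytochrome gene CYP2B6 had 5.73 in VP267 and 13.63 in VP229, and its near-identical pseudogene CYP2B7P had 3.73 and 12.23, so that the source of this signal is uncertain. AUTS2 had 3.04 in VP267 and 11.20 in VP229. In the other direction the differences were as large. PLAT, tissue plasminogen activator, had 10.98 in VP267 and 2.55 in VP229. CNTN1, a neuronal contactin gene, had 10.96 in VP267 and 2.63 in VP229. IL13RA2, the decoy receptor of interleukin 13, had 11.70 in VP267 and 3.68 in VP229. CTSC, the lysosomal protease cathepsin C, had 13.08 in VP267 and 5.08 in VP229.

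**Figure D4:**
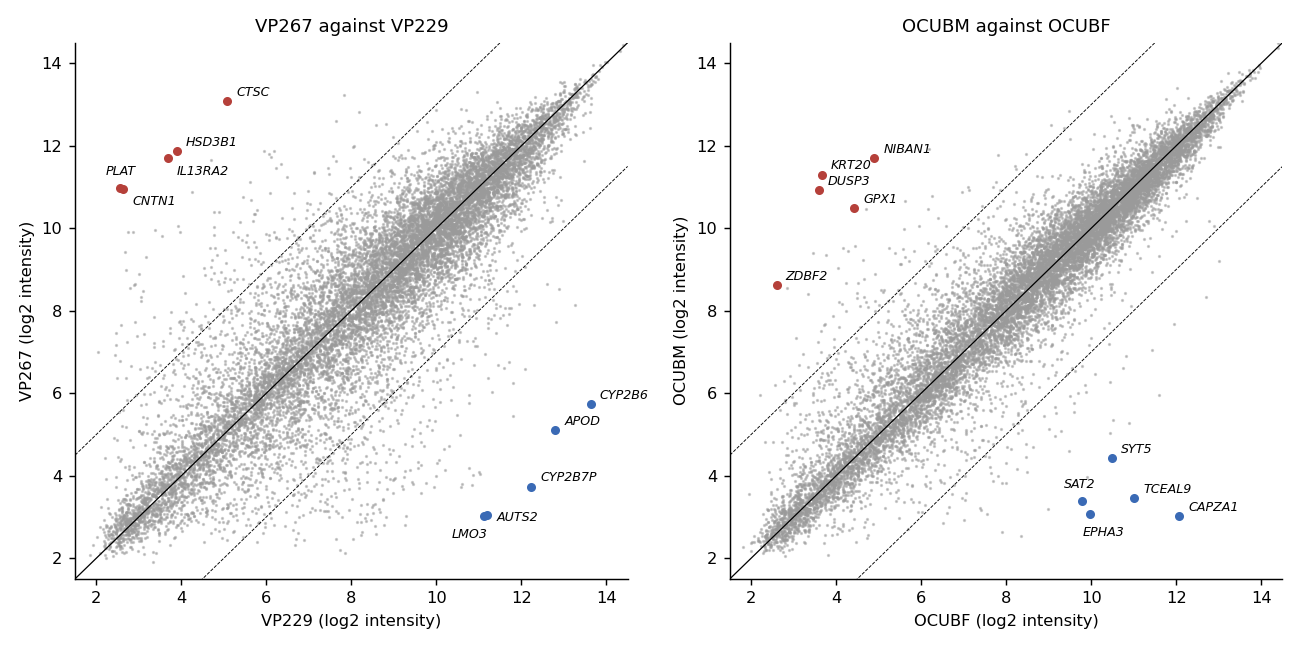
Log2 intensity of every tested gene in VP267 (vertical axis) against VP229 (horizontal axis), and in OCUBM (vertical axis) against OCUBF (horizontal axis); each point is 1 gene on 1 array, and the 5 genes of largest difference in each direction are named. The SD of the difference is 1.23 in the first pair and 0.82 in the second.

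Proliferation genes were lowest in VP229. The list level was 0.29 in VP267 and -2.05 in VP229, against -1.51 (HS362T) to 0.70 (MDAMB231) in the reference lines. CDC20, an activator of the anaphase-promoting complex, had 7.48 in VP229, against a lowest of 9.11, a median of 11.26 and a highest of 11.71 in the 18 reference lines, and fell by 3.30 against the luminal ER-positive mean (adjusted p = 0.00491). PLK1, a mitotic kinase gene, had 7.0, against 8.22 to 10.60 in the 18 reference lines, and TOP2A, the topoisomerase of dividing cells, had 8.54, against 9.47 to 12.10 in the 18 reference lines. Against the basal B class 8 of 9 members were lower, beside 2.62% of all genes, with a median difference of -2.59, against -0.04 over all genes tested. Against the luminal ER-positive class 6 of 9 were lower, beside 1.45%, against basal A 4 of 9, beside 1.25%, and against HER2 2 of 9, beside 0.826%. Against the fibroblast-like class none was lower and 1 of 9 was higher, beside 5.4%. CCNA2, cyclin A2, was apart from every class, with 6.74 in VP229, against a lowest of 9.12, a median of 10.43 and a highest of 11.35 in the 18 reference lines, and differed by -2.81 ± 0.40 (SE) from the fibroblast-like class, the nearest (adjusted p = 0.0056). VP229 also had the widest deviations of the 12 arrays, and the part of array quality in these values was not tested.

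Lists of stratified and urothelial differentiation stood above the reference range in VP229 and within it in VP267. The keratinocyte differentiation list stood at 2.14 in VP267 and 2.89 in VP229, against -2.06 (HS739T) to 2.38 (HCC1954) in the reference lines. SPRR3, a cornified envelope precursor, had 7.53 in VP267 and 10.29 in VP229, against a lowest of 3.58, a median of 4.04 and a highest of 7.12 in the 18 reference lines. S100A8, a calprotectin subunit, had 11.63 in VP267 and 13.46 in VP229, against 2.77 to 13.73 in the 18 reference lines. None of the 7 tested members was apart in VP229 or VP267. The urothelium list stood at 1.49 in VP267 and 2.36 in VP229, against -0.97 (BT549) to 1.93 (HCC1937) in the reference lines, and none of its 4 tested members was apart in either line. UPK2, a uroplakin gene, had 8.64 in VP267 and 10.80 in VP229, against 3.88 to 9.06 in the 18 reference lines.

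The HER2 amplicon was partly raised in VP229. ERBB2 had 12.02 in VP267 and 12.65 in VP229, against 13.50 to 13.69 in the HER2 lines and 9.93 to 11.05 in the basal A lines, and the difference of VP229 from the basal A mean was 2.25 (adjusted p = 0.0168). Against basal A 3 of 8 members were higher, beside 0.96% of all genes, and against HER2 2 of 8 were lower, beside 0.826%. The list level was 0.70 in VP267 and 1.10 in VP229, against 2.57 to 3.20 in the HER2 lines and -0.90 to 0.02 in the luminal ER-positive lines.

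VP229 was set apart upward by IRS4, an insulin receptor substrate gene on chromosome X, which had 10.60 in VP229, against a lowest of 3.62, a median of 3.90 and a highest of 6.36 in the 18 reference lines, and differed by 6.05 ± 0.72 (SE) from the basal A class, the nearest (adjusted p = 0.00131). CSF3R, the receptor of granulocyte colony-stimulating factor, had 9.24 in VP229, against a lowest of 3.91, a median of 4.20 and a highest of 5.92 in the 18 reference lines, and differed by 4.74 ± 0.60 (SE) from the basal A class, the nearest (adjusted p = 0.00199). Potassium channel genes were among the others. KCNK13 had 8.36 in VP229, against 2.66 to 4.86 in the 18 reference lines, and KCNJ13 had 7.64, against 2.71 to 5.0 in the 18 reference lines. The noncoding NETO1-DT had 10.06, against 2.44 to 5.56 in the 18 reference lines. Downward, HSPA1A, an inducible heat shock protein 70 gene whose copy HSPA1B is near-identical, had 6.06 in VP229, against a lowest of 11.06, a median of 12.06 and a highest of 12.65 in the 18 reference lines, and differed by -5.63 ± 0.41 (SE) from the fibroblast-like class, the nearest (adjusted p = 6.48e-06). ECHDC2 had 4.57, against 8.08 to 10.63 in the 18 reference lines, and ALDH1B1, a mitochondrial aldehyde dehydrogenase gene, had 5.75, against 7.92 to 9.94 in the 18 reference lines, a call that ended with the mean of the probe sets (adjusted p = 0.133).

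The genes that set VP267 apart most had varied roles. HSD3B1, a hydroxysteroid dehydrogenase that makes active steroids, had 11.87 in VP267, against a lowest of 2.84, a median of 3.58 and a highest of 5.80 in the 18 reference lines, and differed by 7.77 ± 0.71 (SE) from the basal B class, the nearest (adjusted p = 7.33e-05), where VP229 had 3.89. FABP4, the fatty acid carrier of fat cells, had 11.65 in VP267, against a lowest of 4.09, a median of 4.76 and a highest of 6.38 in the 18 reference lines, and differed by 6.39 ± 0.69 (SE) from the basal B class, the nearest (adjusted p = 0.000445). PLA2G4D, a cytosolic phospholipase gene, had 9.41 in VP267, against 2.45 to 5.32 in the 18 reference lines. PLA2G4D was also apart in SW527 at 10.46 and DU4475 at 8.04. SAMSN1, an adaptor gene of lymphoid and myeloid cells, had 9.30 in VP267, against a lowest of 2.21, a median of 2.60 and a highest of 2.98 in the 18 reference lines, and differed by 6.60 ± 0.42 (SE) from the basal A class, the nearest (adjusted p = 9.95e-07). NXF3, of the mRNA export family, had 10.05, against 3.46 to 6.49 in the 18 reference lines, and MIG7 had 11.12, against 2.40 to 5.42 in the 18 reference lines. The 1 gene apart downward was DECR1, a reductase of fatty acid oxidation, with 9.53 in VP267, against a lowest of 11.50, a median of 12.23 and a highest of 13.49 in the 18 reference lines, and a difference of -2.55 ± 0.43 (SE) from the basal B class, the nearest (adjusted p = 0.0302), a call that was lost without any 1 of 10 of the 18 reference lines (adjusted p up to 0.077).

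SW527 and DU4475 stood apart from every class by genes that WNT signalling switches on. WNT ligands stop the destruction complex, built around APC, from degrading beta-catenin, which then acts with TCF and LEF factors on genes that include the pathway's own inhibitors. DU4475 grows in suspension, and mutations of APC and BRAF have been reported for it. SW527 appears in registers of misidentified lines as a derivative of a colon carcinoma line. The files hold no genotypes, so none of this was tested here.

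The WNT output list stood at 5.36 in SW527 and 5.0 in DU4475, against -1.38 (HS605T) to 1.07 (HS578T) in the reference lines, and MT3 followed with 1.75. Of 9 tested members 4 were higher in SW527 than in basal B, beside 1.88% of all genes, and 5 than in the luminal ER-positive class, beside 1.96%. In DU4475 5 of 9 were higher than in basal B, beside 5.01%, and 5 of 9 than in the luminal ER-positive class, beside 3.92%. The median difference from basal B was 5.32, against 0.04 over all genes tested, in SW527, and 6.24, against -0.01 over all genes tested, in DU4475.

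NOTUM, the secreted enzyme that inactivates WNT ligands, had 11.10 in SW527 and 12.02 in DU4475, against a lowest of 4.94, a median of 5.83 and a highest of 7.0 in the 18 reference lines. The difference was 4.85 ± 0.59 (SE) from the HER2 class, the nearest (adjusted p = 0.000119) in SW527 and 5.77 ± 0.59 (SE) from the HER2 class, the nearest (adjusted p = 8.05e-06) in DU4475. SP5, a transcription factor directly driven by beta-catenin, had 11.99 in SW527 and 11.92 in DU4475, against a lowest of 3.41, a median of 4.28 and a highest of 7.33 in the 18 reference lines. The difference from the basal B class, the nearest, was 6.55 ± 1.42 (SE, adjusted p = 0.0308) in SW527 and 6.48 ± 1.42 (SE, adjusted p = 0.0142) in DU4475. Both SP5 calls were lost when p-values were adjusted over all 12 lines together, at 0.0508 in SW527 and 0.0549 in DU4475, and the SW527 call also under the stricter filter and without any 1 of HCC1954, SKBR3, BT549 and HS578T (up to 0.1002). NKD1, an inhibitor of Dishevelled, had 12.21 in SW527 and 12.22 in DU4475, against a lowest of 4.71, a median of 5.29 and a highest of 8.97 in the 18 reference lines, and was apart in DU4475 (adjusted p = 0.0253, or 0.0945 over all 12 lines together). The secreted inhibitor DKK4, which is no member of the list, had 12.10 in SW527 and 13.44 in DU4475, against a lowest of 3.46, a median of 3.87 and a highest of 4.41 in the 18 reference lines, and ranked as the leading upward gene of DU4475 with a difference of 9.27 ± 0.42 (SE) from the HER2 class, the nearest (adjusted p = 1.74e-09).

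Of the remaining members, APCDD1, AXIN2, LEF1, RNF43 and ZNRF3 were above every reference line in both lines without being apart from all 5 classes by the test. APCDD1, a membrane inhibitor of the pathway, had 13.15 in SW527 and 12.95 in DU4475, against a lowest of 3.70, a median of 5.78 and a highest of 10.50 in the 18 reference lines. AXIN2, the feedback scaffold of the destruction complex, had 12.03 in SW527 and 11.43 in DU4475, against a lowest of 3.25, a median of 6.63 and a highest of 9.02 in the 18 reference lines. LEF1, the transcription factor partner of beta-catenin, had 12.07 in SW527 and 11.99 in DU4475, against 2.83 to 11.15 in the 18 reference lines. The ligase genes RNF43 and ZNRF3 encode proteins that remove WNT receptors. RNF43 had 11.50 in SW527 and 11.66 in DU4475, against 3.06 to 10.21 in the 18 reference lines. ZNRF3 had 11.33 in SW527 and 11.08 in DU4475, against 7.25 to 9.62 in the 18 reference lines. LGR5, the R-spondin receptor of gut stem cells, did not follow, with 5.73 in SW527 and 2.58 in DU4475, against 2.49 to 6.47 in the 18 reference lines.

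**Figure D5:**
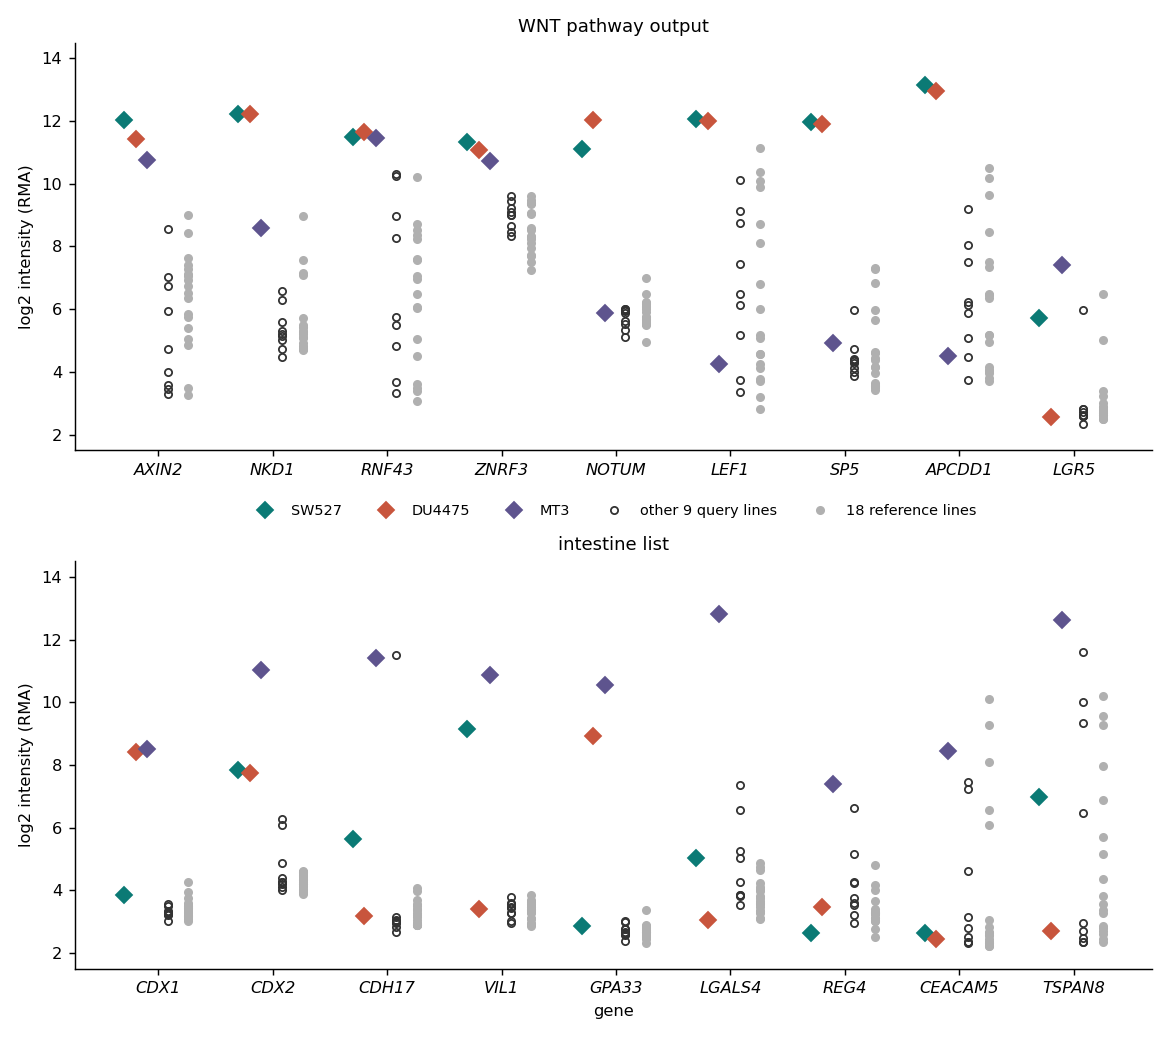
Log2 intensity of members of the WNT output list (top) and the intestine list (bottom); each point is 1 line, with SW527, DU4475 and MT3 as filled diamonds, the other 9 query lines as open circles and the 18 reference lines as grey dots to their right. NOTUM stands at 11.10 in SW527 and 12.02 in DU4475 against a highest reference value of 7.0, and LGALS4 at 12.81 in MT3 against 4.87.

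The promoters of SP5, a member of the WNT output list, and CTLA4, the leading upward gene of SW527, are shown. Both genes were picked by name, lie on chromosome 2, were apart in SW527 and were high in DU4475. SP5 was not among the leading upward genes of either line. Each run is the 250 bases before the start of the gene in RefSeq on GRCh38.p14, plus strand, SP5 at chr2:170715087-170715336 and CTLA4 at chr2:203867521-203867770, with the TCF/LEF letters CTTTGA in capitals on either strand (TCAAAG where they lie on the other strand).
SP5: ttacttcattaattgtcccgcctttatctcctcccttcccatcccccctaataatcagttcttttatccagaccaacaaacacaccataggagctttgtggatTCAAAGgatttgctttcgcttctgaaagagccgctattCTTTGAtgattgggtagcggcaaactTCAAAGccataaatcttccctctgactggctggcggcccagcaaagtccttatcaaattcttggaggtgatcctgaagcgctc
CTLA4: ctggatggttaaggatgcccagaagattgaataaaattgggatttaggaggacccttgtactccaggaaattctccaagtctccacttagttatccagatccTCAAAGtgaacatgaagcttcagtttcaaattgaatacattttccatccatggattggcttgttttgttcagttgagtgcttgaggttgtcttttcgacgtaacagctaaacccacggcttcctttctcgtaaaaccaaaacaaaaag
The SP5 window held 1 match on the gene's strand and 2 on the other, and the CTLA4 window held 1 on the other strand. Of 34788 promoter windows of the same length, 11.2% held the letters. A match is a description of these letters and shows no binding.

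The genes of largest difference in SW527 or DU4475 included some known from cytotoxic and T lymphocytes, while the blood cell list stood within the reference range. CTLA4, an inhibitory receptor of T cells, had 12.24 in SW527 and 12.14 in DU4475, against a lowest of 2.88, a median of 3.32 and a highest of 4.52 in the 18 reference lines, and SW527 differed by 8.41 ± 0.45 (SE) from the basal B class, the nearest (adjusted p = 1.55e-08). PRF1, the pore former perforin, had 12.95 in SW527 and 7.04 in DU4475, against a lowest of 4.34, a median of 4.61 and a highest of 4.95 in the 18 reference lines, and SW527 differed by 8.25 ± 0.40 (SE) from the basal A class, the nearest (adjusted p = 1.55e-08). TRDV1, a variable segment of the T cell receptor delta locus, had 10.89 in SW527 and 13.14 in DU4475, against a lowest of 2.32, a median of 2.83 and a highest of 8.98 in the 18 reference lines, and DU4475 differed by 8.80 ± 1.59 (SE) from the basal A class, the nearest (adjusted p = 0.00278). CD69, an early activation antigen of lymphocytes, had 4.39 in SW527 and 11.94 in DU4475, against a lowest of 2.58, a median of 2.93 and a highest of 4.03 in the 18 reference lines, and DU4475 differed by 8.77 ± 0.49 (SE) from the basal A class, the nearest (adjusted p = 1.08e-08). The markers that define blood cells were low in the same arrays. PTPRC, the pan-leukocyte antigen CD45, had 3.43 in SW527 and 3.58 in DU4475, against 3.17 to 4.25 in the 18 reference lines, and CD3E, a subunit of the T cell receptor complex, had 3.33 in SW527 and 3.31 in DU4475, against 2.97 to 3.85 in the 18 reference lines. Of the 9 measured blood markers, PTPRC, CD53, CD37, SPI1 and CD3E passed the filter on low values in none of the 30 lines, and the blood cell list level was 0.18 in SW527 and -0.09 in DU4475, within -1.03 (HS605T) to 1.87 (HS362T) of the reference lines. IKZF1, a lymphoid transcription factor, was the exception with 8.87 in DU4475, against 3.05 to 6.97 in the 18 reference lines.

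SW527 also expressed genes of the gut lining. DEFA5, the antimicrobial defensin of Paneth cells, had 11.55 in SW527, against a lowest of 2.85, a median of 3.37 and a highest of 3.77 in the 18 reference lines, and differed by 8.02 ± 0.43 (SE) from the HER2 class, the nearest (adjusted p = 1.55e-08). CLRN3, a clarin gene, had 11.26 in SW527, against a lowest of 2.71, a median of 3.17 and a highest of 3.57 in the 18 reference lines, and differed by 7.91 ± 0.44 (SE) from the luminal ER-positive class, the nearest (adjusted p = 1.93e-08). From the intestine list VIL1 and CDX2 were apart upward. Both passed the filter on low values only through query lines, so their number is no result about the list. VIL1, villin of the microvillus core, had 9.14 in SW527, against a lowest of 2.86, a median of 3.37 and a highest of 3.86 in the 18 reference lines, and differed by 5.65 ± 0.48 (SE) from the HER2 class, the nearest (adjusted p = 1.66e-06). CDX2, the transcription factor that sets intestinal identity, had 7.84 in SW527, against a lowest of 3.87, a median of 4.30 and a highest of 4.63 in the 18 reference lines, and differed by 3.40 ± 0.45 (SE) from the HER2 class, the nearest (adjusted p = 0.000233). The list level was 1.49 in SW527, against -0.55 (MDAMB436) to 1.11 (HCC1954) in the reference lines. ASB4, which encodes a substrate adaptor of ubiquitin ligases, had 11.53 in SW527, against 2.79 to 3.82 in the 18 reference lines. ASB4 was also apart in MT3 at 11.39, and at lower levels in EVSAT (6.68), OCUBF (6.20) and DU4475. Genes apart downward in SW527 included RTL8C on chromosome X with 2.05, against 9.59 to 11.74 in the 18 reference lines, the secretory cargo gene TMED3 with 3.34, against 9.87 to 12.01 in the 18 reference lines, and PUDP on chromosome X with 2.93, against 8.36 to 11.60 in the 18 reference lines. RTL8C was also apart downward in DU4475 at 2.45 and MT3 at 5.94.

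SW527 was intermediate for junction and mesenchymal genes. Its epithelial junction list stood at 0.11 and its mesenchymal list at 0.84, both within the reference ranges of -3.87 (HS605T) to 2.65 (ZR751) and -3.92 (SKBR3) to 3.95 (HS362T). The ERK output list stood at 1.96 in SW527 and 1.82 in DU4475, against -3.07 (CAMA1) to 1.54 (MDAMB231) in the reference lines. ETV4, an ETS factor induced by ERK, had 10.51 in SW527 and 11.00 in DU4475, against 4.87 to 8.78 in the 18 reference lines, and SPRY4, a feedback inhibitor, had 11.55 in SW527 and 12.37 in DU4475, against 3.97 to 10.38 in the 18 reference lines. DUSP6, the phosphatase that switches ERK off, had 12.55 in SW527 and 11.87 in DU4475, against 6.12 to 12.48 in the 18 reference lines. No member of this list was apart from all classes in either line. The Mullerian tract list was highest in SW527 at 2.24, against -1.67 (HCC1143) to 1.96 (MDAMB436), with EMX2 at 8.61, against 2.37 to 10.99 in the 18 reference lines, and MUC16 at 9.05, against 3.65 to 10.04 in the 18 reference lines.

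DU4475 had the largest number of genes apart, and its low genes included genes of the actin cortex and the matrix. VIP, the vasoactive intestinal peptide, had 12.85 in DU4475, against a lowest of 2.47, a median of 2.81 and a highest of 5.10 in the 18 reference lines, and differed by 9.02 ± 0.65 (SE) from the fibroblast-like class, the nearest (adjusted p = 1.11e-07). CTCFL, the testis paralogue of the insulator protein CTCF, had 11.82 in DU4475, against a lowest of 2.51, a median of 2.80 and a highest of 3.40 in the 18 reference lines, and differed by 8.94 ± 0.42 (SE) from the luminal ER-positive class, the nearest (adjusted p = 2.48e-09). L1TD1, an RNA-binding protein gene of pluripotent cells, had 11.62 in DU4475, against a lowest of 2.73, a median of 3.19 and a highest of 3.55 in the 18 reference lines. RDX, radixin, which ties membrane proteins to actin, was at the bottom of the scale with 2.93 in DU4475, against a lowest of 11.66, a median of 12.24 and a highest of 12.65 in the 18 reference lines, and differed by -9.05 ± 0.34 (SE) from the HER2 class, the nearest (adjusted p = 1.61e-10). MSN, moesin of the same family, had 3.13 in DU4475, against 2.84 to 13.12 in the 18 reference lines. LTBP1, which anchors latent TGF-beta in the matrix, had 2.74 in DU4475, against a lowest of 8.0, a median of 11.88 and a highest of 13.11 in the 18 reference lines, and differed by -7.79 ± 1.13 (SE) from the basal A class, the nearest (adjusted p = 0.000328). HSPA1A had 3.04, against 11.06 to 12.65 in the 18 reference lines. MGST1, a microsomal glutathione transferase gene, had 2.18, against 4.24 to 13.15 in the 18 reference lines, and its call (adjusted p = 0.0417) was lost without any 1 of 17 of the 18 reference lines and under 4 other alternatives, up to an adjusted p of 0.155 when adjusted over all 12 lines together.

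Several lists lay outside or near the edge of the reference range in DU4475. The mesenchymal list stood at -4.19 in DU4475, against -3.92 (SKBR3) to 3.95 (HS362T) in the reference lines, with VIM at 4.14, against 4.67 to 13.57 in the 18 reference lines, and CAV1, caveolin, at 3.25, against 2.74 to 13.16 in the 18 reference lines. The smooth muscle and myoepithelium list stood at -2.24, against -1.61 (ZR751) to 3.69 (HS578T), with TAGLN, transgelin, at 4.83, against 5.07 to 13.17 in the 18 reference lines. The epithelial junction list stood at 1.29, within the reference range. The neuroendocrine list stood at 3.01 in DU4475 and 1.83 in SW527, against -1.05 (HCC70) to 1.68 (HS362T). SYP, synaptophysin of secretory vesicles, had 10.99 in DU4475, against a lowest of 4.72, a median of 5.5 and a highest of 7.88 in the 18 reference lines, and differed by 4.78 ± 0.82 (SE) from the luminal ER-positive class, the nearest (adjusted p = 0.0016). CHGB, a granin of dense-core granules, had 8.55 in DU4475, against a lowest of 4.22, a median of 4.77 and a highest of 5.79 in the 18 reference lines, and differed by 3.40 ± 0.47 (SE) from the basal B class, the nearest (adjusted p = 0.000183). CHGA, its relative, had 4.77, against 4.48 to 5.22 in the 18 reference lines. The melanocyte list was lowest in DU4475 at -1.70, against -1.0 (ZR751) to 1.51 (T47D), with MITF at 3.27, against 6.85 to 10.82 in the 18 reference lines, a call that ended with the mean of its probe sets (adjusted p = 0.0819).

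MT3 expressed an intestinal program. MT3 also appears in registers of misidentified lines as a derivative of a colon carcinoma line, which could not be tested with expression data alone. The intestine list stood at 6.72 in MT3, against -0.55 (MDAMB436) to 1.11 (HCC1954) in the reference lines. The members named below were apart in MT3, and their highest reference values were 3.36 to 4.87, under the array medians. They passed the filter on low values only through query lines, so their number is no result about the list. LGALS4, galectin-4 of the gut lining, had 12.81 in MT3, against a lowest of 3.09, a median of 3.72 and a highest of 4.87 in the 18 reference lines, and differed by 8.45 ± 0.52 (SE) from the basal A class, the nearest (adjusted p = 5.73e-08). CDH17, liver-intestine cadherin, had 11.41 in MT3, against a lowest of 2.89, a median of 3.19 and a highest of 4.08 in the 18 reference lines, and differed by 7.99 ± 0.56 (SE) from the fibroblast-like class, the nearest (adjusted p = 2.18e-07). GPA33, a surface antigen of the gut epithelium, had 10.56 in MT3, against a lowest of 2.32, a median of 2.69 and a highest of 3.36 in the 18 reference lines, and differed by 7.65 ± 0.41 (SE) from the basal B class, the nearest (adjusted p = 1.67e-08). The transcription factors CDX2 and CDX1, which drive intestinal genes, had 11.03 and 8.50, against 3.87 to 4.63 in the 18 reference lines for CDX2 and 3.01 to 4.28 in the 18 reference lines for CDX1. VIL1 had 10.88, against 2.86 to 3.86 in the 18 reference lines, and REG4, a secreted lectin, had 7.40, against 2.51 to 4.81 in the 18 reference lines.

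CLRN3, which was also apart in CAL51 at 7.07, is shown because it was among the leading upward genes of both SW527 and MT3. Its 250 bases before the start in RefSeq on GRCh38.p14, minus strand, at chr10:127892942-127893191, held the CDX letters CATAAA once, on the other strand, as TTTATG in capitals.
CLRN3: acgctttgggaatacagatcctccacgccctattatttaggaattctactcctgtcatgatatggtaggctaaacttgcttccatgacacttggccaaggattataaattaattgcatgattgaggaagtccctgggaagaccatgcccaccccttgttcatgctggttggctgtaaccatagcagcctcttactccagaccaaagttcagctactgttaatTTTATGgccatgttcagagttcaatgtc
Of 34788 promoter windows 9.65% held CATAAA on either strand. The windows of LGALS4 and GPA33 held no match, which says only that the letters are not in those 250 bases. CLRN3 had 11.70 in MT3, against a lowest of 2.71, a median of 3.17 and a highest of 3.57 in the 18 reference lines, and differed by 8.35 ± 0.44 (SE) from the luminal ER-positive class, the nearest (adjusted p = 1.28e-08).

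Genes outside the list that set MT3 apart most included 2 known from gut epithelium. NOX1, the NADPH oxidase of colon, had 11.14 in MT3, against a lowest of 2.42, a median of 2.74 and a highest of 3.19 in the 18 reference lines, and differed by 8.20 ± 0.42 (SE) from the basal A class, the nearest (adjusted p = 1.28e-08). CFTR, the chloride channel of secretory epithelia, had 11.65 in MT3, against a lowest of 2.99, a median of 3.37 and a highest of 3.83 in the 18 reference lines, and differed by 8.04 ± 0.41 (SE) from the HER2 class, the nearest (adjusted p = 1.28e-08). ABHD12B had 10.94 in MT3, against 2.49 to 3.39 in the 18 reference lines. On the low side RBMS1, an RNA-binding protein gene, had 4.24 in MT3, against a lowest of 10.79, a median of 12.19 and a highest of 12.61 in the 18 reference lines, and differed by -6.99 ± 0.35 (SE) from the luminal ER-positive class, the nearest (adjusted p = 1.28e-08). ZNF140, a zinc finger gene, had 2.62, against 8.85 to 10.49 in the 18 reference lines. GSTM3, a glutathione transferase gene, had 3.21, against 8.33 to 13.50 in the 18 reference lines, a call that ended with the mean of its probe sets (adjusted p = 0.586). TRPM8, a cold-sensing channel of prostate, was apart as well, with 7.46, against 3.32 to 4.51 in the 18 reference lines (adjusted p = 0.00062). The WNT output list of MT3 stood at 1.75, with 3 of 9 members higher than in the fibroblast-like class, beside 9.41% of all genes, and 0 of 9 higher than in basal A, beside 1.63%. The mesenchymal list of MT3 stood at -3.25 and its epithelial junction list at 2.06.

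Fewer genes of the intestine list were apart in the other lines. DU4475 was apart for 3 of 9, beside 2.1% of all genes that were apart upward, namely GPA33 at 8.93 (adjusted p = 7.3e-08), CDX1 at 8.40 (adjusted p = 9.45e-06) and CDX2 at 7.76 (adjusted p = 0.000139), with CDH17 at 3.17 and LGALS4 at 3.04. GPA33, CDX1 and CDX2 passed the filter on low values only through query lines, so their number is no result about the list. VP229 was apart for LGALS4 at 7.35 (adjusted p = 0.0201), and CAL51 for CDH17. The intestine list stood at 1.70 in CAL51, 1.30 in OCUBF and 1.13 in DU4475, all above the highest reference line, HCC1954, at 1.11. OCUBF had no member apart.

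CAL51 combined a partial loss of junction genes with single genes of kidney, gut and bladder epithelium. CDH17 had 11.52 in CAL51, against a lowest of 2.89, a median of 3.19 and a highest of 4.08 in the 18 reference lines, and differed by 8.10 ± 0.56 (SE) from the fibroblast-like class, the nearest (adjusted p = 1.01e-06). SLC12A3, the thiazide-sensitive salt transporter of kidney tubules, had 12.39 in CAL51, against a lowest of 3.44, a median of 4.01 and a highest of 7.42 in the 18 reference lines, and differed by 6.83 ± 1.12 (SE) from the HER2 class, the nearest (adjusted p = 0.00477). UPK1B, a uroplakin of the bladder lining, had 10.26 in CAL51, against a lowest of 2.71, a median of 3.46 and a highest of 4.13 in the 18 reference lines, and differed by 6.65 ± 0.54 (SE) from the fibroblast-like class, the nearest (adjusted p = 2.82e-06). PAX2, a transcription factor of kidney and Mullerian tract, had 8.05, against 4.20 to 5.87 in the 18 reference lines, a call that ended with the mean of its probe sets (adjusted p = 0.217). UGT2B7, a glucuronosyltransferase of liver and kidney with near-identical relatives, had 9.50 in CAL51, against a lowest of 1.88, a median of 2.17 and a highest of 4.73 in the 18 reference lines, and differed by 6.67 ± 0.75 (SE) from the basal A class, the nearest (adjusted p = 9.74e-05). RHEX, a regulator of erythropoietin signalling, had 9.54, against 2.56 to 3.41 in the 18 reference lines, and the noncoding LINC00645 had 11.35, against 2.45 to 4.75 in the 18 reference lines.

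The epithelial junction list stood at -1.46 in CAL51, against -3.52 to -1.86 in basal B and 1.93 to 2.57 in basal A. Of 12 tested members 5 were lower than in the luminal ER-positive class, beside 0.967% of all genes, and 5 were lower than in basal A, beside 0.925%. CDH1, E-cadherin, had 10.53 in CAL51, against 4.01 to 8.23 in basal B and 12.03 to 12.95 in basal A. ESRP1, the epithelial splicing regulator, had 2.96, against 3.02 to 4.22 in basal B and 12.03 to 12.58 in basal A. The mesenchymal list stood at 1.79, with VIM at 12.61 and ZEB1, a repressor of E-cadherin, at 10.66, against 13.12 to 13.51 and 9.77 to 11.20 in basal B. The smooth muscle list was highest in CAL51 among the 12 lines at 1.34, within the reference range of -1.61 (ZR751) to 3.69 (HS578T), with ACTA2 at 11.77, against 5.30 to 13.19 in the 18 reference lines. The pluripotent and embryonic list was also highest there at 1.18, against -0.51 (MDAMB231) to 1.74 (T47D), with LIN28A at 8.80, against 3.40 to 9.10 in the 18 reference lines.

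CAL51 was also low for genes that every reference line had above its array median. MAP3K13, a stress kinase gene, had 2.83 in CAL51, against a lowest of 9.34, a median of 10.02 and a highest of 11.26 in the 18 reference lines, but the call ended with the mean of its probe sets (adjusted p = 1). LYPLAL1, a lysophospholipase-like gene, had 3.92 in CAL51, against a lowest of 9.34, a median of 10.66 and a highest of 11.46 in the 18 reference lines, and differed by -6.22 ± 0.65 (SE) from the fibroblast-like class, the nearest (adjusted p = 4.31e-05). EPM2AIP1 had 2.58, against 8.01 to 11.24 in the 18 reference lines (adjusted p = 0.000706).

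COLO824 was epithelial, with low luminal genes and 1 neural crest factor. SOX10, a transcription factor of neural crest and of basal breast epithelium, had 11.10 in COLO824, against a lowest of 3.53, a median of 4.02 and a highest of 4.95 in the 18 reference lines, and differed by 6.96 ± 0.51 (SE) from the HER2 class, the nearest (adjusted p = 1.17e-06). Over all 58 lines COLO824 ranked 5 for SOX10, behind lines that are neither query nor reference lines. Among the other query lines SOX10 stood at 3.50 to 4.21. It was the 1 member of the melanocyte list apart in COLO824, whose list level of 0.29 lay within -1.0 (ZR751) to 1.51 (T47D) of the reference lines. Pigment cell genes were not above the reference lines. PMEL had 4.32, against 4.91 to 7.03 in the 18 reference lines, and MITF had 9.35, against 6.85 to 10.82 in the 18 reference lines. ESR1 had 8.21 in COLO824, against 12.24 to 12.73 in the luminal ER-positive lines, and ERBB2 had 11.98, against 13.50 to 13.69 in the HER2 lines. Of 12 luminal epithelium genes 5 were lower than in the luminal ER-positive class, beside 1.34% of all genes. FOXA1 had 7.17, against 12.96 to 13.46 in the luminal ER-positive lines. The basal epithelium list stood at 0.73, against 2.48 to 4.07 in basal A, with KRT5 at 10.89, against 6.04 to 13.38.

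The epithelial junction list was highest in COLO824 among the 12 lines at 2.31, within the reference range. CLDN4, a tight junction claudin, had 11.84, against 3.58 to 11.78 in the 18 reference lines, and CDH1 had 12.42, against 3.93 to 13.33 in the 18 reference lines. The interferon list stood at -2.88 and the MHC class II list at -1.77, against -1.60 (BT549) to 3.85 (MDAMB231) in the reference lines for class II. The liver list was lowest in COLO824 at -1.55, against -1.30 (CAMA1) to 1.05 (T47D), with SERPINA1, alpha-1-antitrypsin, at 4.19, against 3.84 to 12.92 in the 18 reference lines.

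EID1, an inhibitor of differentiation that binds the retinoblastoma protein, gave the smallest adjusted p of the genes named for the line. It had 2.61 in COLO824, against a lowest of 11.47, a median of 12.15 and a highest of 12.71 in the 18 reference lines, and differed by -9.01 ± 0.30 (SE) from the basal A class, the nearest (adjusted p = 4.2e-11). PFKP, the platelet phosphofructokinase of glycolysis, had 3.93 in COLO824, against a lowest of 10.10, a median of 11.84 and a highest of 12.36 in the 18 reference lines, and differed by -7.41 ± 0.68 (SE) from the basal A class, the nearest (adjusted p = 1.65e-05). CSRP1, a LIM protein gene of smooth muscle, had 4.10, against 9.83 to 12.03 in the 18 reference lines. On the high side IL12RB2, a subunit of the interleukin 12 receptor, had 9.53 in COLO824, against a lowest of 2.43, a median of 2.82 and a highest of 3.15 in the 18 reference lines, and differed by 6.51 ± 0.39 (SE) from the basal A class, the nearest (adjusted p = 1.84e-07). IL12RB2 was also apart in OCUBF at 7.03 and DU4475 at 4.90. PRSS33, a serine protease gene, had 10.88 in COLO824, against a lowest of 4.02, a median of 4.38 and a highest of 5.32 in the 18 reference lines. C1orf105 had 12.66 in COLO824, against a lowest of 2.70, a median of 3.15 and a highest of 7.05 in the 18 reference lines. DMRT3, a doublesex-family transcription factor, had 10.60, against 3.06 to 7.11 in the 18 reference lines, and EGFL6, a secreted EGF-repeat protein gene, had 10.57, against 2.55 to 5.33 in the 18 reference lines.

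FR2 had the lowest epithelial junction level and the highest mesenchymal level of the 12 lines. The epithelial junction list stood at -3.35 in FR2, against -3.52 to -1.86 in basal B and -3.87 to -3.75 in the fibroblast-like class. Of 12 tested members 9 were lower than in the luminal ER-positive class, beside 1.29% of all genes, 9 lower than in HER2, beside 1.15%, and 8 lower than in basal A, beside 0.819%. None passed against basal B or the fibroblast-like class, where 0.233% and 3.45% of all genes were called. The median difference from the luminal ER-positive class was -6.36, against -0.04 over all genes tested. CDH1 had 4.41 in FR2, against 4.01 to 8.23 in basal B and 12.09 to 13.33 in the luminal ER-positive lines. ESRP1 had 3.18, against 3.02 to 4.22 in basal B and 12.04 to 12.25 in the luminal ER-positive lines. RAB25, an epithelial trafficking GTPase gene, had 3.80, against 3.26 to 4.27 in basal B and 12.63 to 12.89 in the luminal ER-positive lines.

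The mesenchymal list stood at 3.23 in FR2, against 1.52 to 3.92 in basal B and 3.84 to 3.95 in the fibroblast-like class. CDH2, N-cadherin, had 11.96, against 7.12 to 12.36 in basal B, AXL, a receptor kinase of mesenchymal cells, had 13.21, against 11.91 to 13.45, and SPARC, a matrix glycoprotein, had 11.85, against 3.49 to 12.91. The fibroblast matrix list stood at 3.26, against -1.29 to 5.53 in basal B and 5.63 to 5.75 in the fibroblast-like class. COL1A2, a type I collagen chain, had 12.85, against 4.61 to 13.84 in basal B and 13.98 to 14.09 in the fibroblast-like class. POSTN, periostin, had 12.08, against 2.51 to 13.33 and 10.83 to 12.97, and LUM, lumican, had 11.35, against 2.06 to 12.63 and 12.09 to 12.61, in the same order of classes. POSTN in FR2 lay within the fibroblast-like range, while COL1A2 and LUM lay below that range and within the wide range of basal B, whose highest line for all 3 genes was HS578T.

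Few genes separated FR2 from all classes. PERP, a desmosome protein gene, was the clearest, with 3.42 in FR2, against a lowest of 10.57, a median of 11.64 and a highest of 12.43 in the 18 reference lines, and a difference of -7.72 ± 0.41 (SE) from the basal B class, the nearest (adjusted p = 5.82e-08). Unlike the junction genes, it was high in every basal B and fibroblast-like line. PI15, a peptidase inhibitor gene, had 9.15 in FR2, against a lowest of 2.97, a median of 3.55 and a highest of 4.75 in the 18 reference lines, and differed by 5.07 ± 0.55 (SE) from the fibroblast-like class, the nearest (adjusted p = 0.000677). MSTN, myostatin, the growth inhibitor of muscle, had 6.52 in FR2, against a lowest of 2.23, a median of 2.48 and a highest of 3.08 in the 18 reference lines, and differed by 3.79 ± 0.44 (SE) from the fibroblast-like class, the nearest (adjusted p = 0.00117). FAM241A had 3.83, against 8.25 to 11.09 in the 18 reference lines (adjusted p = 0.00363). PI15 was not limited to FR2, since it was also apart in COLO824 at 7.53 and DU4475 at 6.51. The other 4 genes named for FR2 rest on single reference lines or probe sets. IP6K3, an inositol phosphate kinase gene, had 9.72, against 3.02 to 5.95 in the 18 reference lines, and its call was lost without HCC1954 (adjusted p = 0.076) or UACC893 (adjusted p = 0.0729). MAST4, a kinase gene, had 2.87, against 7.28 to 9.97 in the 18 reference lines, and was lost without any 1 of 7 (up to 0.0676). GLUL, glutamine synthetase, had 4.43, against 7.91 to 13.26 in the 18 reference lines, and was lost without any 1 of 13 and with the mean of its probe sets (adjusted p = 1). PPP2R2B, a phosphatase subunit gene, had 9.65, against 3.59 to 7.08 in the 18 reference lines, and was lost without any 1 of 16 and under 4 other alternatives (adjusted p up to 0.117).

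SVCT had a basal epithelium level in the upper basal A range and a mesenchymal level within the basal B range, with few members past the test. Of 6 tested basal epithelium genes 1 was higher than in the luminal ER-positive class, beside 0.304% of all genes, 2 were higher than in the fibroblast-like class, beside 3.62%, and none was higher than in HER2, basal A or basal B. Of 13 tested mesenchymal genes none was higher than in any class, and 2 were lower than in the fibroblast-like class, beside 1.82%. The basal epithelium list stood at 4.06 in SVCT, against 2.48 to 4.07 in basal A and -1.16 to 0.40 in basal B. KRT5, the keratin of basal cells, had 13.04, against 6.04 to 13.38 in basal A and 3.89 to 7.75 in basal B. TRIM29 had 10.90, against 9.10 to 11.71 and 3.37 to 8.79, and DSC3, a desmosomal cadherin, had 10.29, against 9.31 to 11.53 and 3.35 to 7.92, in the same order of classes. The mesenchymal list stood at 2.30, against -2.10 to 1.47 in basal A and 1.52 to 3.92 in basal B. VIM had 12.12, against 8.37 to 13.55 in basal A and 13.12 to 13.51 in basal B. The epithelial junction list stood at 1.70, with 7 of 12 members higher than in basal B, beside 0.353% of all genes, and 10 of 12 higher than in the fibroblast-like class, beside 3.62%. MET, the receptor of hepatocyte growth factor, was highest of the 30 lines in SVCT, at 12.42, against 5.27 to 12.41 in the 18 reference lines.

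The urothelium list was highest in SVCT at 3.69, against -0.97 (BT549) to 1.93 (HCC1937) in the reference lines. Its lead came from UPK1B, which had 12.35 in SVCT, against a lowest of 2.71, a median of 3.46 and a highest of 4.13 in the 18 reference lines, and differed by 8.74 ± 0.54 (SE) from the fibroblast-like class, the nearest (adjusted p = 5.2e-07). UPK1A had 7.46, against 3.60 to 8.29 in the 18 reference lines, and UPK2 had 6.98, against 3.88 to 9.06 in the 18 reference lines. ZBED2, a zinc finger gene, had 10.11 in SVCT, against a lowest of 3.33, a median of 3.72 and a highest of 4.38 in the 18 reference lines, and differed by 6.13 ± 0.51 (SE) from the HER2 class, the nearest (adjusted p = 1.75e-05). CAL51 was high for the same 2 genes, with 10.26 for UPK1B and 7.97 for ZBED2. HSD3B1 had 9.51 in SVCT, against 2.84 to 5.80 in the 18 reference lines, and L1TD1 had 8.28, against 2.73 to 3.55 in the 18 reference lines. PSG2, of the placental pregnancy-specific glycoproteins, whose members are near-identical, had 6.90, against 1.86 to 3.82 in the 18 reference lines. The 1 gene apart downward, THUMPD3, a tRNA methyltransferase gene, had 3.63 in SVCT, against a lowest of 8.99, a median of 9.80 and a highest of 10.79 in the 18 reference lines, and differed by -5.66 ± 0.57 (SE) from the fibroblast-like class, the nearest (adjusted p = 0.000147).

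Proliferation genes were highest in SVCT, with a list level of 1.01, followed by FR2 with 0.73, against -1.51 (HS362T) to 0.70 (MDAMB231) in the reference lines. MKI67, the Ki-67 antigen, had 11.35, against a lowest of 8.13, a median of 10.20 and a highest of 10.93 in the 18 reference lines, and BIRC5, survivin, had 11.68, against 8.14 to 11.42 in the 18 reference lines. AURKA, the Aurora A kinase gene, had 12.81, against 10.09 to 12.58 in the 18 reference lines. No member was apart from all classes.

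None of the 14 measured receptor genes was apart from all 5 classes in any of the 12 lines, but several peaked there. ERBB4, the neuregulin receptor, was highest of the 30 lines in CAL51 with 11.89, against a lowest of 3.02, a median of 4.80 and a highest of 11.72 in the 18 reference lines. FGFR2 had 11.80 and FGFR3 12.07 in CAL51, against 3.32 to 10.49 in the 18 reference lines for FGFR2 and 6.74 to 11.91 in the 18 reference lines for FGFR3. FGFR4 was highest in EVSAT with 11.44, followed by OCUBM with 11.09, against a lowest of 5.41, a median of 6.70 and a highest of 10.64 in the 18 reference lines. The receptor kinase gene KIT peaked in MT3 with 11.76, against a lowest of 3.34, a median of 4.29 and a highest of 11.51 in the 18 reference lines. ESR1 ran over the 12 lines from 3.74 in FR2 to 11.33 in VP229, PGR from 2.02 in VP229 to 8.55 in EVSAT, and ERBB2 from 9.07 in DU4475 to 13.53 in OCUBM. ERBB3 ran from 9.30 in FR2 to 12.70 in OCUBM. EGFR ran from 5.11 in DU4475 to 11.69 in VP267, MET from 5.47 in DU4475 to 12.42 in SVCT, and FGFR1 from 4.02 in MT3 to 8.55 in SW527. IGF1R, the insulin-like growth factor receptor, ran from 4.70 in OCUBF to 11.09 in VP229, and PRLR, the prolactin receptor, from 2.22 in SVCT to 9.17 in OCUBM. The receptor list as a whole was lowest in DU4475 at -1.99, against -1.41 (HS578T) to 1.82 (ZR751) in the reference lines.

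EFEMP1, a gene of the fibulin matrix proteins, was at the bottom of the scale in 5 lines. It had 3.06 in EVSAT, 3.03 in SW527, 3.03 in COLO824, 2.97 in MT3 and 3.05 in CAL51, against a lowest of 8.40, a median of 11.17 and a highest of 12.47 in the 18 reference lines. These were the 5 lowest values of the 12 lines, followed by 4.17 in OCUBF, and the highest was 12.27 in SVCT. The calls in these 5 lines, which share the reference lines, had adjusted p of 0.00468 in MT3 to 0.0205 in EVSAT, and all 5 ended with the mean of the gene's probe sets (adjusted p = 0.0962 to 0.276). The call in EVSAT was also lost without SKBR3 (adjusted p = 0.0511).

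Tumour suppressor genes differed by line. RB1 in DU4475 and CDKN2A in MT3 lay below the array medians, where values have no clear order. RB1, the retinoblastoma gene, had 1.85 in DU4475, against a lowest of 1.95, a median of 10.33 and a highest of 10.69 in the 18 reference lines, where MDAMB468 had the lowest value. CDKN2A, the gene of the p16 inhibitor, had 2.60 in MT3, against a lowest of 2.62, a median of 9.93 and a highest of 12.87 in the 18 reference lines. BRCA1 had 10.25 in SVCT, against 6.45 to 9.74 in the 18 reference lines. APC had 7.46 in DU4475, against 7.78 to 9.29 in the 18 reference lines. The list level was highest in SVCT at 1.22 and lowest in DU4475 at -0.66, within -1.85 (MDAMB231) to 1.29 (HCC70) of the reference lines. Cancer testis antigens were highest in OCUBM at 1.91 and lowest in SVCT at -1.64, within -1.66 (HCC1937) to 2.84 (HS578T). MAGEA1 had 10.40 in OCUBM, against 2.99 to 8.38 in the 18 reference lines, in a family whose members are near-identical, and MAGEB2 was apart in EVSAT with 6.85, against 2.36 to 3.90 in the 18 reference lines (adjusted p = 0.00756).

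The luminal epithelium list was highest in VP229 at 2.05 and lowest in FR2 at -2.24, within -3.27 (HS605T) to 3.93 (T47D) of the reference lines, and AGR2, a secretory disulfide isomerase of luminal cells, had 12.93 in VP229 and 3.14 in FR2, against 2.69 to 13.75 in the 18 reference lines. Lists of other tissues gave mostly values within the reference range. The lung list was highest in OCUBF at 1.95, against -1.55 (HS605T) to 3.99 (HCC1954), where NKX2-1, the lung and thyroid transcription factor, had 8.90, against 2.89 to 12.40 in the 18 reference lines. The endothelium list ran from -1.32 in OCUBM to 0.87 in SVCT, against -1.20 (T47D) to 1.07 (HCC1954). The blood cell list ran from -1.68 in FR2 to 1.16 in VP267, against -1.03 (HS605T) to 1.87 (HS362T), and LCP1, plastin of leukocytes and carcinoma cells, had 3.0 in FR2 and 12.14 in VP267, against 5.11 to 12.43 in the 18 reference lines. The prostate list was highest in SW527 at 1.0, against -1.14 (MDAMB468) to 0.83 (MDAMB436), with HOXB13 at 6.85, against 3.01 to 7.76 in the 18 reference lines. The fibroblast matrix list was lowest in VP267 at -2.92, against -2.64 (UACC893) to 5.75 (HS362T), with COL5A1 at 3.93, against 4.74 to 12.93 in the 18 reference lines. The interferon list was highest in OCUBF at 0.70, where IFI27 had 10.90, against 4.43 to 13.14 in the 18 reference lines.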

How the data were processed

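RNA of each line was amplified (NuGEN), labelled with biotin and hybridised to a custom Affymetrix array after parallel processing in well plates, per the labels' protocols. RMA in Affymetrix Power Tools gave the deposited log2 values, per the submitters' processing notes. Whether the 58 arrays were normalized together, the probe build and tool versions are not given in the sources used here.

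Of 52377 probe sets 35184 name 1 gene, 374 several and 16819 none in GEO's platform annotation. 35134 were matched to current symbols by gene ID. Each of 19798 genes was represented by its probe set of highest mean over 58 lines (8731 genes had several), and 14162 genes at least 1 log2 unit above the array median in at least 1 of 30 lines were tested. limma 3.58.1 (R 4.3.3; lmFit, then eBayes with trend and robust) fitted 5 class means and 12 single lines, with 60 contrasts and Benjamini-Hochberg adjustment over genes, threshold 0.05. The median residual SD within classes was 0.564. The procedure was tested on simulated data. Where nothing says that lines of a class are alike in culture or origin, p-values measure only the spread between these lines. Precision is limited by the number of arrays.

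Placement and list levels used Python 3.11.15, numpy 2.4.6, pandas 2.3.3 and scipy 1.17.1, and figures matplotlib 3.10.9. The text names, for each line, the 6 genes apart upward and 4 downward with the largest difference from the nearest class mean, receptors that peak in a line, up to 3 members of each list for the lines at its extremes, list members apart from all classes, and 5 genes each way for a pair. XIST, TSIX, Y-linked genes and genes without a symbol are not named. Further members of the WNT, intestine and other lists are given where a paragraph describes that list. The 12 lines and the classes were set by name, and the choice of these and of the lists was made with earlier results of these data known. Some genes of the lists are not used here. Promoters come from RefSeq on GRCh38.p14. Alternatives were the mean of probe sets, no or a stricter filter, another quantile normalization, no trend, adjustment over all 12 lines, removal of probe sets marked as cross-hybridising, other placement measures, leaving out each reference line and, added after seeing the data, leaving out the HER2 class.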

Additional observations from a re-analysis of the deposited data

Results flagged for a closer look

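In groups of 4 reference lines, 132 sets of values were examined for a line whose gap to its nearest neighbour, as a share of the group's range, exceeds Dixon's limit, which chance passes in about 1 of 20 groups. 10 passed, and none is a value of the 12 lines. They bear on the class ranges that those lines were set against.

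Among basal A lines HCC1143 stood apart 4 times. Its luminal epithelium level was -0.40 (0.92 to 1.07 in the other basal A lines), its keratinocyte differentiation level -0.59 (1.68 to 1.98), its FGFR4 value 7.20 (6.40 to 6.49) and its correlation with its own class 0.207 (0.422 to 0.453). HCC1937 had a lung list level of 3.55 (-1.09 to -0.57 in the others), and MDAMB468 had a MET value of 11.21 (11.77 to 11.81). Among basal B lines MDAMB231 had an epithelial junction level of -1.86 (-3.52 to -3.29 in the others) and an MHC class II level of 3.85 (-1.60 to -0.73), and HS578T had a melanocyte level of -0.60 (-0.16 to -0.08). Among luminal ER-positive lines KPL1 had an endothelium level of -0.84 (-1.20 to -1.19).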

How the results depend on the processing

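No paired analysis was possible because each line gave 1 array and the labels carry no replicate numbers. Of 134 named calls of a gene in a line, 112 held under every alternative that gave the call a value and 115 under every such alternative other than leaving out a line. The filter requiring 3 lines above the array median left 86 of these calls with a value, and the mean of probe sets 131, so the other calls were not tested there. All 348 list levels moved by less than the SD between reference lines when probe sets were averaged. Of 96 counts of genes apart under alternatives other than leaving out a line, 72 stayed within 1.5 times. The exceptions were as follows, and the cause was not tested except where fewer genes or lines entered.

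With the mean of probe sets FR2 had 7 genes apart. With no filter on low values the counts were 124 in CAL51, 46 in OCUBF, 51 in OCUBM, 16 in SVCT, 245 in SW527, 54 in VP229 and 24 in VP267. With genes required above the array median in 3 lines, which tests fewer genes, they were 39 in CAL51, 289 in DU4475, 26 in EVSAT, 13 in OCUBF, 3 in SVCT, 63 in SW527, 18 in VP229 and 8 in VP267. Adjusted over all 12 lines together they were 24 in FR2, 36 in OCUBF, 12 in SVCT and 49 in VP229. With the HER2 class left out, chosen after seeing the data, they were 82 in EVSAT, 47 in OCUBF, 57 in OCUBM and 52 in VP229. Leaving out single reference lines gave 9 (without HCC1954) to 21 (without HS578T) in FR2. EFEMP1, apart downward in 5 lines, lost its calls with the mean of probe sets (adjusted p = 0.0962 to 0.276).

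The margin between the nearest class and the next changed sign for 6 lines. For SW527 it was -3.07e-05 with no filter, -0.0129 with the 1000 most variable genes, -0.0273 with the 1000 genes of largest F, -0.0539 by Euclidean distance and -0.122 with centring on 58 lines. For SVCT it was -0.0445 by Spearman's rho, -0.0529 with centring on 58 lines and 0.262 with the 1000 genes of largest F. For VP229 it was -0.0178 by Euclidean distance. Over single reference lines left out, the margin ran from -0.044 to 0.163 in EVSAT and -0.00967 to 0.186 in OCUBM (both nearest to HER2 without CAMA1), and from -0.0504 to 0.0652 in MT3 (luminal ER-positive without HCC1954 or SKBR3). It ran from -0.0662 to 0.0574 in VP229 (basal A without any 1 of the 3 HER2 lines), and from -0.113 to 0.117 in SVCT (basal B without HCC1937, HCC1143 or HS578T). In SW527 it ran from -0.0359 to 0.0499, with basal B nearest without any 1 of T47D, CAMA1, KPL1, HCC1954, HCC1937, HCC1143, BT549, HS578T or HS605T. The other 6 lines kept their nearest class without any single reference line. Low signal limits what can be ordered, since values under the array medians of 5.37 to 5.58 are near background.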

Other observations

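The genes in this section lie outside the rule for named genes and were chosen after their values were seen. Among the genes apart downward in DU4475, which were 1.17% of all genes, were some of the Hippo pathway, which acts through the coactivators YAP1 and WWTR1 and their TEAD partners. They were picked for being apart, so their number is no result about the pathway. YAP1 had 5.33 in DU4475, against 9.87 to 12.13 in the 18 reference lines, WWTR1 had 3.33, against 8.90 to 12.48 in the 18 reference lines, and TEAD2 had 2.51, against 6.91 to 10.60 in the 18 reference lines. The upstream kinase gene LATS2 had 3.36, against 8.42 to 11.37 in the 18 reference lines, AMOTL1 had 3.80, against 7.21 to 11.70 in the 18 reference lines, and the target CCN1 had 5.09, against 8.36 to 12.58 in the 18 reference lines. TEAD1 and TEAD4 of the same pathway were not apart, with 10.58 and 9.88 in DU4475, against 9.96 to 11.94 in the 18 reference lines for TEAD1 and 7.33 to 11.79 in the 18 reference lines for TEAD4. MT3 was apart for some of them, with 3.47 for WWTR1, 3.99 for AMOTL1 and 5.05 for CCN1, while its YAP1 stood at 11.20.

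Further transcripts known from lymphocytes were high in DU4475, and some of them also in SW527. SIT1, an adaptor of T cells, had 11.62 in DU4475 and 5.56 in SW527, against 2.92 to 3.66 in the 18 reference lines. The T cell kinase gene ZAP70 had 11.23 in DU4475 and 8.98 in SW527, against 5.30 to 6.18 in the 18 reference lines, and the granzyme gene GZMA had 11.74 and 9.35, against 4.03 to 4.82 in the 18 reference lines. CD5 had 11.02 in DU4475, against 3.38 to 4.06 in the 18 reference lines. In SW527 the Paneth cell defensin DEFA6 had 11.66, against 3.58 to 4.72 in the 18 reference lines. PROX1, a transcription factor that WNT signalling raises in colon, had 10.52 in SW527, 11.32 in DU4475 and 6.88 in MT3, against 2.68 to 3.67 in the 18 reference lines. FGF19, a gut hormone, had 10.66 in SW527 and 11.20 in DU4475, against 2.87 to 4.74 in the 18 reference lines. CCND1, cyclin D1, was apart downward in COLO824 at 6.78 and FR2 at 7.81, against 11.19 to 13.64 in the 18 reference lines. In CAL51 the NODAL inhibitor LEFTY1 had 11.13, against 3.98 to 5.65 in the 18 reference lines, and the oncofetal glypican GPC3 had 11.33, against 3.64 to 6.43 in the 18 reference lines.

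Some genes were apart in several of the 12 lines, which share the same reference lines. PXDN, peroxidasin of basement membrane, was low in 6 lines, with 5.98 in EVSAT, 5.82 in SW527, 5.36 in COLO824, 6.06 in MT3, 5.39 in CAL51 and 5.89 in DU4475, against 8.49 to 13.27 in the 18 reference lines. ABCB1, the drug efflux pump P-glycoprotein, was high in 4, with 10.92 in SW527, 11.03 in MT3, 8.57 in CAL51 and 12.48 in DU4475, against 3.83 to 6.24 in the 18 reference lines. NR3C1, the glucocorticoid receptor, was low in the same 4, with 5.65 in SW527, 3.33 in MT3, 4.36 in CAL51 and 3.99 in DU4475, against 7.52 to 11.67 in the 18 reference lines. EPS8L3 was high in these 4 as well, with 11.08 in SW527, 8.90 in MT3, 8.56 in CAL51 and 11.29 in DU4475, against 3.94 to 4.54 in the 18 reference lines. HOXD10 was high in OCUBM, SW527, CAL51 and DU4475, with 6.93 in OCUBM, 8.78 in SW527, 7.22 in CAL51 and 9.46 in DU4475, against 3.62 to 4.86 in the 18 reference lines, and its neighbour HOXD11 in the same 4, with 6.81 in OCUBM, 7.82 in SW527, 6.67 in CAL51 and 8.60 in DU4475, against 2.99 to 4.17 in the 18 reference lines.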
